A study of Mus musculus with 11 samples.

Results

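The regions described here are the 8543 stretches of open chromatin, of 42950 in the series (19.9%), that had an ATAC-seq peak in WT wounded, *Grhl3*-cKO unwounded and *Grhl3*-cKO wounded keratinocytes and no peak in WT unwounded keratinocytes. They were selected on the measured peak lists themselves, so their presence in those lists and their peak values are described without a test. Some have *Klf4*, *Gata3*, *Sox9*, *Trp63*, *Cdh1* or *Jag1* as the nearest gene, in part at a long distance, and others are at the promoters of *Pmepa1* and *Lama3*. The WT unwounded list was the shortest, with 10769 peaks against 36872 in WT wounded, 29364 in *Grhl3*-cKO unwounded and 22474 in *Grhl3*-cKO wounded keratinocytes. When every list was shortened to its 10769 peaks with the highest −log10 p, 891 of 17778 regions (5.01%) were missing only from the WT unwounded list. At equal length 595 regions were then missing only from the WT wounded list, 517 only from the *Grhl3*-cKO unwounded list and 741 only from the *Grhl3*-cKO wounded list. With the full lists those counts were 30, 87 and 643.

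The animals were C57BL/6 mice by label (C57BL/6J background), labelled WT or GRHL3 KO. In the knockout (cKO) the *Krt14* promoter drives Cre recombinase in epidermal keratinocytes, where it deletes floxed *Grhl3*, and the WT littermates also carried *Krt14*-Cre. Adult males and females were given full-thickness back wounds, and some days later epidermis was taken from the wound margin and from distal unwounded skin. Cells with intermediate or high levels of the integrin CD49F, meant to hold basal and suprabasal keratinocytes, and without CD45, CD31 and TER119 were sorted. GRHL3 belongs to the Grainyhead family of transcription factors, which control formation and repair of surface epithelia. It acts in barrier formation and in the migration of keratinocytes that close a wound. ATAC-seq maps accessible chromatin by the insertion sites of the Tn5 transposase. The *Krt14* promoter is active from embryonic skin onward, so Cre in the knockout is not limited to the adult or to the wound.

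ATAC-seq was 1 library per condition from sorted cells of pooled wounds of pooled animals, without replicates, and beyond a minimum depth named in the paper the depth of each library is not known here. The name of the *Grhl3*-cKO wounded list, unlike those of the other 3, does not state that it was called without a control, so a difference in peak calling cannot be told apart from a difference in signal. RNA-seq had 2 libraries each of WT unwounded, WT wounded and *Grhl3*-cKO wounded keratinocytes and 1 of *Grhl3*-cKO unwounded keratinocytes. The libraries held 15488699 and 16807451 gene counts (WT unwounded), 16653948 and 15418631 (WT wounded), 13497283 (*Grhl3*-cKO unwounded) and 15223569 and 14279568 (*Grhl3*-cKO wounded). Nothing in the labels says whether replicates came from separate animals, so p-values measure the spread between these samples only. *Grhl3* counts were 1893 and 1398, 1831 and 1388, 1029, and 1765 and 1491 in the same order. They cover the whole gene and do not isolate the deleted exons, so genotype is taken from the label. The *Grhl3*-cKO unwounded RNA library differed from the other 6 in sex-linked genes, with 14854 counts of *Xist* against 3 to 32 and 0 counts of *Ddx3y*, *Kdm5d*, *Uty* and *Eif2s3y* against at least 320. No peak list had a peak at the promoter of *Xist* or of these 4 Y-linked genes, and the lists held 6 (WT unwounded), 8 (WT wounded), 10 (*Grhl3*-cKO unwounded) and 5 (*Grhl3*-cKO wounded) peaks on chromosome Y.

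Most regions missing from the WT unwounded list were not at gene starts. Of the 8543, 2334 (27.3%, Wilson 95% interval 26.4 to 28.3, counting error only) lay within 1000 bases of the start of a protein-coding gene, 305 (3.57%) in other exonic sequence, 2381 (27.9%) in introns and 3523 (41.2%) between genes. Regions present in all 4 lists, 9524 in number, were promoters in 51.2% and intergenic in 28.7%. The 8543 regions therefore resembled the whole set of merged regions, of which 26.0% were promoters and 41.7% intergenic, more than the regions found in every condition. The median distance to the nearest gene start was 20006 bases, against 720 bases for regions in all 4 lists and 19693 bases for all merged regions. Within 10000 bases of a gene start were 39.7% of them, against 59.2% of the regions in all 4 lists, and 18.7% lay more than 100000 bases away, against 11.9%. They were spread over the genome, from 17.9% of the merged regions of chromosome 11 to 22.1% of those of chromosome 10. Another region of the same kind lay within 20000 bases of 27.9% of them, against 28.0% for regions in all 4 lists.

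The smaller share of promoters was seen at every peak strength. Regions were split at the quartiles of the lowest of their 3 −log10 p-values in the WT wounded, *Grhl3*-cKO unwounded and *Grhl3*-cKO wounded lists. In the weakest of the 4 bins, up to 4.27, promoters were 27.9% of the regions missing only from the WT unwounded list and 35.8% of those in all 4 lists. From 4.27 to 4.82 the shares were 29.4% and 43.2%, and from 4.82 to 5.60 they were 27.6% and 46.1%. Above 5.60 they were 24.3% and 53.8%. Promoter shares thus went up with peak strength among the shared regions but not among the regions missing from the WT unwounded list.

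Fold enrichment over the local background and −log10 p were lower in these regions than in regions of all 4 lists. The median fold enrichment was 4.39 (quartiles 3.89 and 5.03) in WT wounded keratinocytes, where regions in all 4 lists had 5.24. It was 3.99 (3.58 and 4.51) against 4.86 in *Grhl3*-cKO unwounded and 4.20 (3.81 and 4.70) against 4.94 in *Grhl3*-cKO wounded keratinocytes. The regions in all 4 lists had a median of 4.25 in WT unwounded keratinocytes, the lowest of their 4 values in 5976 regions (62.7%). The distributions overlapped, since 1643 of the 8543 regions (19.2%) reached the median of the shared regions in WT wounded, 1248 (14.6%) in *Grhl3*-cKO unwounded and 1443 (16.9%) in *Grhl3*-cKO wounded keratinocytes. Median −log10 p was 6.39 against 9.55 for the shared regions in WT wounded, 5.46 against 8.19 in *Grhl3*-cKO unwounded and 5.56 against 7.69 in *Grhl3*-cKO wounded keratinocytes. The merged regions were also narrower, with a median of 563 bases against 761.

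Within the 8543 regions, WT wounded keratinocytes most often had the strongest peak, with the highest fold enrichment in 4183 regions (49.0%), against 2797 (32.7%) in *Grhl3*-cKO wounded and 1563 (18.3%) in *Grhl3*-cKO unwounded keratinocytes. *Grhl3*-cKO unwounded keratinocytes had the lowest value in 4353 (51.0%). The differences were small, with a median ratio of 1.04 between WT wounded and *Grhl3*-cKO wounded, 1.09 between WT wounded and *Grhl3*-cKO unwounded and 0.949 between *Grhl3*-cKO unwounded and *Grhl3*-cKO wounded keratinocytes. In the regions of all 4 lists the same ratios were 1.05, 1.07 and 0.981, and against WT unwounded keratinocytes they were 1.20 for WT wounded, 1.12 for *Grhl3*-cKO unwounded and 1.14 for *Grhl3*-cKO wounded. Few of the regions had a peak weaker than any in the WT unwounded list. The lowest −log10 p in the WT unwounded list was 3.79, and 92 regions (1.08%) had a value below it in WT wounded, 411 (4.81%) in *Grhl3*-cKO unwounded and 64 (0.749%) in *Grhl3*-cKO wounded keratinocytes. The lists hold no values below their calling limits, so WT unwounded signal inside these regions is not known here.

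The regions closest to the boundary of the rule were at *Pfn2*, *Fat1* and *Bmp7*. A region at *Pfn2*, which encodes the actin-binding protein profilin 2 (chr3:57847232-57848138), lay 43 bases from the nearest WT unwounded peak and had fold enrichments of 4.04 in WT wounded, 3.26 in *Grhl3*-cKO unwounded and 3.71 in *Grhl3*-cKO wounded keratinocytes. A region near *Fat1*, an atypical cadherin gene (chr8:44799904-44800405), lay 152 bases from one. Just outside the rule was a region near *Bmp7* (chr2:172862730-172863977), whose WT unwounded peak had a −log10 q of 1.01 and a fold enrichment of 3.01. Only 15 of the 8543 regions (0.176%) lay within 500 bases of a WT unwounded peak and 701 (8.21%) within 5000 bases, and the median gap was 42110 bases.

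The strongest of these regions, ranked by the lowest of the 3 fold enrichments, was the promoter of *Nubp1*, a gene for an iron-sulphur cluster assembly protein. This region (chr16:10411898-10412315, mm10) had fold enrichments of 7.01 in WT wounded, 7.77 in *Grhl3*-cKO unwounded and 7.23 in *Grhl3*-cKO wounded keratinocytes, well above the median of regions in all 4 lists. *Nubp1* RNA was 506 and 584 counts in WT unwounded, 560 and 653 in WT wounded, 256 in *Grhl3*-cKO unwounded and 413 and 491 in *Grhl3*-cKO wounded keratinocytes, with an unadjusted P of 0.421 for WT wounding by edgeR's quasi-likelihood test. Next came an intron of *Cers6*, a ceramide synthase gene (chr2:68935589-68936223), at 6.79, 6.93 and 9.11 in the same order of lists. A region 148314 bases from the start of *Klf6*, a zinc finger transcription factor gene (chr13:6009527-6010064), followed at 6.96, 6.75 and 6.68. *Klf6* counts were 11895 and 10110, 14402 and 10479, 15869, and 11930 and 10350, and those of *Cers6* were 1090 and 1079, 1255 and 917, 1082, and 806 and 1107, so that the groups overlapped for both genes between WT unwounded and WT wounded keratinocytes. The remaining regions among the 10 strongest were nearest to *Cps1*, *Osbpl3*, *Fignl1*, *Atp6ap1l*, *Zfp956*, *Insig1* and *Dnajc5b*. *Atp6ap1l* and *Dnajc5b* had 0 counts in all 7 libraries, and *Cps1* had 16 counts in WT wounded replicate 1 and 0 elsewhere. None of the genes nearest to these 10 regions that could be tested had an unadjusted P under 0.05 between WT wounded and WT unwounded or between *Grhl3*-cKO wounded and WT wounded keratinocytes.

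Sequence composition followed the places of the regions. In windows of 300 bases around the region midpoints, median GC content was 50.3%, against 56.0% in regions of all 4 lists and 50.3% in all merged regions. Among promoters alone it was 65.0% against 65.7%, and at least 10 CpG dinucleotides were present in 87.0% against 91.9%. Outside promoters it was 47.7% against 48.7%. The motif of AP-1, the FOS and JUN factors that are active in keratinocyte stress and enhancers (TGANTCA), was present in 29.8% of the regions missing only from the WT unwounded list, 22.6% of those in all 4 lists and 27.6% of all merged regions. Outside promoters it was in 38.5% against 41.1% in regions of all 4 lists and 35.0% in all merged regions. Outside promoters the AP-1 shares were 45.4% and 41% below 40% GC, 41.5% and 47.7% at 40 to 50% GC, 35.4% and 38.2% at 50 to 60% GC and 11.9% and 12% above that. The core motif of the Grainyhead-like factors (AACNNGTT), the family of GRHL3, was in 6.89%, 5.30% and 6.36%, and outside promoters in 8.26%, 8.02% and 7.49%. Outside promoters at 40 to 50% GC it was in 9.85% against 9.74%, so GRHL core sites were there about as common as in shared regions of like composition. Within promoters it was in 3.26% against 2.71%.

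Motifs of other epidermal factors differed in the same small range. The full p63 site was in 1.37% of the regions missing only from the WT unwounded list, 0.746% of those in all 4 lists and 1.31% of all merged regions, and outside promoters in 1.79%, 1.42% and 1.69%. Matches to the RUNX pattern TGNGGTT were in 15.5%, 13.3% and 15.7%, and to the C/EBP pattern TTGCNNAA in 14.1%, 10.7% and 13.8%. TEAD sites (CATTCCA) were in 5.84%, 4.52% and 5.83%. Outside promoters TEAD sites were in 7.12%, 7.46% and 7.17%, RUNX matches in 17.1%, 15.6% and 17.2% and C/EBP matches in 16.8%, 15.7% and 16.3%. Promoter motifs were less frequent than in the shared regions, with the GC box of KLF and Sp factors (GGGGCGG) in 14.3%, 25.9% and 13.7%, the ETS site (CCGGAAG) in 5.35%, 9.90% and 5.31%, the CCAAT box of NF-Y (CCAATCA) in 5.09%, 8.33% and 5.50% and the YY1 site (AANATGGCG) in 1.49%, 3.02% and 1.51%. Within promoters the gap narrowed to 40.7% against 45.0% for the GC box and 14.5% against 17% for the ETS site. For the CCAAT box the gap did not narrow, with 7.41% against 11.7%. The E-box CACGTG was in 6.34%, 7.30% and 6.31% and the cyclic AMP response element TGACGTCA in 1.14%, 1.83% and 1.10%. A motif match describes sequence only, and binding was not measured. An N in a pattern stood for any base, so the AP-1 and RUNX patterns also match sequences outside the usual sites of these factors.

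Sequences of 160 bases are given from the strongest regions outside promoters with a match to the AP-1, GRHL core, p63 or RUNX pattern. They are from the plus strand of mm10 (GRCm38), with the match in capitals. The AP-1 example is in the intron of *Cers6* (chr2:68935896-68936055), with fold enrichments of 6.79, 6.93 and 9.11 in WT wounded, *Grhl3*-cKO unwounded and *Grhl3*-cKO wounded keratinocytes. Matches to the AP-1 pattern were in 27.6% of all merged regions.
Cers6: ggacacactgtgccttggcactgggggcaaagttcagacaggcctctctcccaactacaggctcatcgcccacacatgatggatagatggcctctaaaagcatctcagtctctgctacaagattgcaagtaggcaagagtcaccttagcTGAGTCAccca
The GRHL core example lies between genes, 20186 bases from the start of *Fignl1* (chr11:11788730-11788889), with 8.19, 6.67 and 6.62. GRHL core sites were in 6.36% of all merged regions.
Fignl1: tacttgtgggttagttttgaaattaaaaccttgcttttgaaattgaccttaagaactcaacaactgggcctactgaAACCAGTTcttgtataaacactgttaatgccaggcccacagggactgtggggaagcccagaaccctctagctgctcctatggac
The p63 example lies between genes, 12702 bases from the start of *Adamtsl1* (chr4:86041103-86041262), with 5.49, 7.06 and 5.87. Full p63 sites were in 1.31% of all merged regions.
Adamtsl1: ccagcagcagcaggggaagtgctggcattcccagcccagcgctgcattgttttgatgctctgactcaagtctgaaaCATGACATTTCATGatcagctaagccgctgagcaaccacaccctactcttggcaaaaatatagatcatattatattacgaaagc
The example of the RUNX pattern lies between genes, 162400 bases from the start of *Pfkfb3* (chr2:11339175-11339334), with 8.15, 6.40 and 7. On the other strand it reads TGGGGTT, with G at the N of TGNGGTT, where the usual RUNX site has C or T. It is thus a match to the loose pattern only. Matches to TGNGGTT were in 15.7% of all merged regions.
Pfkfb3: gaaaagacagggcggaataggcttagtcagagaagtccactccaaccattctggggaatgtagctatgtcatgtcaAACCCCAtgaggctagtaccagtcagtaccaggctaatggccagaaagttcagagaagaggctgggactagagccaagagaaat

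Promoter sites were represented by the strongest promoter regions with a GC box and with an ETS site, again on the plus strand of mm10 (GRCm38) with the motif in capitals. The *Nubp1* promoter window (chr16:10412097-10412256) holds a GC box, a motif found in 40.5% of all merged promoter regions.
Nubp1: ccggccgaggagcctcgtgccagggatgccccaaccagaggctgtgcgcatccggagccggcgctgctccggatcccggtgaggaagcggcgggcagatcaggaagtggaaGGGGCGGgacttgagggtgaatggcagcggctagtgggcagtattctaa
The window at *Mns1*, a gene for a meiosis-specific nuclear protein (chr9:72438483-72438642) comes from a region whose midpoint lies 42 bases from the gene start. Its fold enrichments were 6.19, 5.82 and 6.20, and ETS sites were in 14.8% of all merged promoter regions.
Mns1: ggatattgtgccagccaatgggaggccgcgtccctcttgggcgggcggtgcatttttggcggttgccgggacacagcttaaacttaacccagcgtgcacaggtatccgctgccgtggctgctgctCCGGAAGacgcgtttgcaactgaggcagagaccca

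Genes discussed for wound-front migration were partly among those nearest to these regions. *Fscn1*, which encodes the actin-bundling protein fascin, had 1 such region, *Cdh1*, the E-cadherin gene, had 3, and *Itga5*, a fibronectin receptor gene, had 1. The *Fscn1* region lies in an intron, 3139 bases from the gene start (chr5:142963258-142963771), with fold enrichments of 4.13 in WT wounded, 4.02 in *Grhl3*-cKO unwounded and 4.01 in *Grhl3*-cKO wounded keratinocytes. It was therefore listed in both *Grhl3*-cKO conditions at nearly the WT wounded value. The 3 *Cdh1* regions are intronic, at chr8:106608404-106608957 (5.34, 3.55 and 4.04), chr8:106615879-106616254 (3.96, 3.19 and 3.70) and chr8:106619477-106619961 (4.16, 4.03 and 4.34). The *Itga5* region overlaps an exon, 7776 bases from the gene start (chr15:103358714-103359259), with 3.60, 3.58 and 4.01. *Krt16*, *Krt17* and *Pdpn* had a region in all 4 lists and none missing only from the WT unwounded list. The region nearest to *Krt14* was in the WT wounded and *Grhl3*-cKO unwounded lists, the region nearest to *Krt1* in the *Grhl3*-cKO unwounded list alone, the 4 regions nearest to *Grhl3* had other patterns, and *Krt6b* had none.

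The regions of *Fscn1* and *Itga5* and 1 of the *Cdh1* regions held the matches to the AP-1 pattern TGANTCA printed here. They are in capitals on the plus strand of mm10 (GRCm38), and 35.0% of all merged regions outside promoters hold such a match. The *Cdh1* match is TGACTCA. Those of *Fscn1* (TGATTCA) and *Itga5* (TGAATCA) have T or A at the N, where the usual AP-1 site has C or G. The *Fscn1* window is chr5:142963365-142963524.
Fscn1: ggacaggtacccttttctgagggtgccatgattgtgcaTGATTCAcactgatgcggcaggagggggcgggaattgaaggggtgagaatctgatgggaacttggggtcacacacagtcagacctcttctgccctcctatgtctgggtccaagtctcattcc
The *Cdh1* window is chr8:106619709-106619868, in the intron 16340 bases from the gene start.
Cdh1: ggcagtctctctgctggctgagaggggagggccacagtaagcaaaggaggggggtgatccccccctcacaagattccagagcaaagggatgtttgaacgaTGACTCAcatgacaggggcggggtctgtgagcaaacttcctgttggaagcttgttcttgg
The *Itga5* window is chr15:103358837-103358996.
Itga5: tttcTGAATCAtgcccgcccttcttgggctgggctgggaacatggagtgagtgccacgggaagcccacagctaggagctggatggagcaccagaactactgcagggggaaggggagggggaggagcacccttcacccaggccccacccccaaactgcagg

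RNA of these 3 genes did not follow the peak lists in a simple way. *Fscn1* counts were 849 and 1655 in WT unwounded, 1850 and 1994 in WT wounded, 455 in *Grhl3*-cKO unwounded and 1958 and 805 in *Grhl3*-cKO wounded keratinocytes. In CPM both WT wounded values of *Fscn1*, 110 and 130, were above both WT unwounded values, 54.2 and 95.8. The log2 fold change was 0.68 (SE 0.32, edgeR's quasi-likelihood test, unadjusted P = 0.0502). The *Grhl3*-cKO wounded pair was 134 and 55.6 CPM, the first above and the second within the range of the WT unwounded pair. For *Cdh1* the counts were 20847 and 17430, 24582 and 17312, 16450, and 16187 and 16389, with overlap between the WT groups. *Itga5* counts were 319 and 206, 473 and 703, 162, and 383 and 218. Both WT wounded values of *Itga5* were above both WT unwounded values and both *Grhl3*-cKO wounded values. None of the 3 genes had an adjusted p under 0.05 by edgeR's quasi-likelihood test in either comparison.

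The genes nearest to the 8543 regions numbered 5275 of 21840 protein-coding genes (24.2%). The genes with the most such regions also had many merged regions. *Adgrl2*, an adhesion receptor gene, had 19 of its 52 merged regions among them, of which 16 were intergenic, 2 intronic and 1 at its promoter. *Marcks*, which encodes an actin-linked kinase substrate, had 13 of 24. *Cited2* had 13 of 32, *Efna5* 13 of 45, *Pde4d* 13 of 47 and *Klf6* 12 of 47, and 11 each were at *Myc* (of 39), *Plk2* (of 26), *Gata3* (of 47) and *Tbl1xr1* (of 39), beside 19.9% of all merged regions. All 13 at *Cited2*, all 11 at *Myc* and all 11 at *Gata3* were intergenic, the nearest of them 29676, 4457 and 177022 bases from the gene start. Of the 5275 genes, 3629 (68.8%) had a single such region and 192 had at least 5. Regions of all 4 lists were also nearest to 2388 of them (45.3%).

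RNA of the genes with the most regions gave few differences in the 2 tested comparisons. Against the single *Grhl3*-cKO unwounded library *Klf6* had a log2 difference of 0.85, *Pde4d* 0.98 and *Myc* 0.73 from WT unwounded keratinocytes, below the 2-fold rule. *Gata3*, a regulator of epidermal differentiation, had 3573 and 4219 counts in WT unwounded, 3469 and 4013 in WT wounded, 3809 in *Grhl3*-cKO unwounded and 3967 and 4715 in *Grhl3*-cKO wounded keratinocytes. *Myc*, a driver of keratinocyte proliferation, had 6852 and 5119, 5949 and 5023, 7893, and 8131 and 5178. *Marcks* had 3199 and 2967, 3301 and 2931, 2179, and 2195 and 2139. Both *Grhl3*-cKO wounded values of *Marcks* were below both WT wounded values, with a log2 fold change of -0.38 (SE 0.16, edgeR's quasi-likelihood test, unadjusted P = 0.0350 and adjusted p = 1). For the other 9 of these 10 genes the unadjusted P was at least 0.0571 in both tested comparisons. Many peaks near a gene thus went without a detectable difference in its RNA at 2 libraries per group.

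Gene groups listed with earlier results of these data known differed in how often their genes had such a region, beside 24.2% of all protein-coding genes. Epidermal transcription factors came first, with 24 of 34 (70.6%), among them *Trp63*, *Klf4*, *Klf5*, *Sox9*, *Gata3*, *Grhl1* and *Grhl2*. Regions of all 4 lists were nearest to 25 of the same 34 genes (73.5%), to 70% of the TGF-beta and BMP pathway and to 45% of the wound and activated keratinocyte genes. The shares of these 3 groups are therefore not particular to the regions described here, and regions of all 4 lists were nearest to 29.8% of all protein-coding genes. Cell junction genes followed with 16 of 24 (66.7%, against 37.5% with a region of all 4 lists), including *Cdh1*, *Cdh3*, *Dsg3*, *Cldn1*, *Ocln* and *Gja1*. The TGF-beta and BMP pathway had 13 of 20 (65.0%), EGF family and receptor genes 8 of 13 (61.5%, the same with a region of all 4 lists), endothelial genes 6 of 10 (60%, against 40%), AP-1 and stress factors 10 of 18 (55.6%, against 61.1%) and Hippo pathway and YAP target genes 7 of 13 (53.8%, the same in both). Actin and migration genes had 13 of 26 (50%, against 61.5% with a region of all 4 lists), Notch pathway genes 6 of 12 (50%, against 66.7%) and wound and activated keratinocyte genes 9 of 20 (45.0%). Lower shares were found for chromatin regulators, with 8 of 23 (34.8%), and for basal keratinocyte and hemidesmosome genes, with 4 of 15 (26.7%). Melanocyte genes and muscle and mural genes had 2 of 8 each (25%, against 37.5% and 0% with a region of all 4 lists), suprabasal and cornified envelope genes 5 of 22 (22.7%), fibroblast genes 1 of 9 (11.1%) and leukocyte genes 1 of 12 (8.33%).

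The groups also differed in how many merged regions their genes had. The 34 epidermal transcription factor genes were nearest to 456 merged regions, and 92 of these (20.2%) were missing only from the WT unwounded list, close to the 19.9% of all regions. For cell junction genes it was 34 of 133 (25.6%, where 14.3% were in all 4 lists), for endothelial genes 14 of 52 (26.9%, where 7.69% were in all 4 lists), for Hippo pathway and YAP target genes 14 of 60 (23.3%) and for wound and activated keratinocyte genes 16 of 73 (21.9%). Lower shares were those of actin and migration genes, 19 of 115 (16.5%), and of basal keratinocyte and hemidesmosome genes, 8 of 64 (12.5%). At *Sox9*, 9 of 58 merged regions were of this kind and all 9 were intergenic. At *Klf4* they were 10 of 16, of which 9 were intergenic and 1 at its promoter.

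RNA levels of the nearest genes lay between those of shared regions and of all genes. Per kilobase of exon, the median over 5144 genes matched to the count tables was between 4.85 and 5.06 CPM in the 7 libraries, against 6.78 to 7.09 CPM for genes nearest to regions of all 4 lists and 1.05 to 1.20 CPM for all protein-coding genes. Genes with at least 3 such regions had medians from 7.64 to 8.50 CPM. Genes nearest to these regions and to none in all 4 lists had 2.96 to 3.10 CPM. No condition stood apart from the others in all of these sets. Between 692 and 843 of the 5144 genes had 0 counts in a given library.

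Wounding of WT skin was compared first, since WT unwounded keratinocytes are the condition that lacked these peaks. *Pmepa1* and *Cald1* rose, and *Lama3*, *Itga2* and *Itga5* were higher in both wounded libraries. *Pmepa1* encodes a membrane protein that restrains TGF-beta signalling and had 2 promoter regions and 1 intronic region missing only from the WT unwounded list. *Cald1* encodes the actin regulator caldesmon and had 1 at its promoter and 1 between genes. Of the 4415 genes nearest to these regions that passed the expression filter, 264 (5.98%) had an unadjusted P under 0.05, against 4.84% of all 14045 genes tested and 268 of 5775 (4.64%) of genes nearest to regions of all 4 lists. They were 182 higher (4.12%, against 3.18% of all genes) and 82 lower (1.86%, against 1.67%). An adjusted p under 0.05 by edgeR's quasi-likelihood test was reached by 2 of them, against 0.0285% of all genes. That count was 13 with DESeq2, 22 with edgeR's likelihood ratio test, 43 without a filter, 14 without WT wounded replicate 1 and 0 without WT unwounded replicate 2, with a floor of 10 counts or with just the 4 compared libraries. The WT groups did not overlap for 1453 genes (32.9%, against 33.0% of all genes). Genes with at least 3 such regions had an unadjusted P under 0.05 in 66 of 703 (9.39%), 49 higher and 17 lower. Those genes also had more RNA, with a median of 5.51 log2 CPM against 4.77 for all 4415, and the part of expression level in this count was not tested. The share of higher genes among those with an unadjusted P under 0.05 was 68.9% with all libraries and 51.7% without WT wounded replicate 1, where 171 were higher and 160 lower, so that the lower genes were more and the higher ones nearly as many.

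Counts of *Cald1* were 558 and 905 in WT unwounded, 1842 and 2479 in WT wounded, 413 in *Grhl3*-cKO unwounded and 722 and 513 in *Grhl3*-cKO wounded keratinocytes. Both WT wounded libraries stood above all 5 others. The log2 fold change on WT wounding was 1.62 (SE 0.25, edgeR's quasi-likelihood test, adjusted p = 0.0258), and leaving out 1 library gave 1.31 to 1.93, where adjusted p was lowest at 0.00149 on dropping WT wounded replicate 1 and highest at 0.221 on dropping WT unwounded replicate 1. *Pmepa1* had 648 and 789, 1654 and 2005, 693, and 1333 and 1212 counts. Its WT wounded values were the highest and its *Grhl3*-cKO wounded values lay between them and all 3 unwounded values. The log2 fold change was 1.40 (SE 0.20, edgeR's quasi-likelihood test, adjusted p = 0.0126), from 1.17 to 1.58 without 1 library, with adjusted p of 0.0014 without WT wounded replicate 1 and 0.195 without WT unwounded replicate 1.

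Laminin-332 anchors basal keratinocytes and is laid down by migrating ones. Its gene *Lama3* had 1 region of this kind, 196 bases from the gene start. *Lama3* had 5584 and 5973 counts in WT unwounded, 8596 and 17305 in WT wounded, 5359 in *Grhl3*-cKO unwounded and 8766 and 6832 in *Grhl3*-cKO wounded keratinocytes. WT wounded replicate 2 was far above replicate 1. Its log2 fold change on WT wounding was 1.22 (SE 0.26, edgeR's quasi-likelihood test, adjusted p = 0.169), 0.54 without WT wounded replicate 2 and 1.68 with an adjusted p of 0.000114 without replicate 1. *Itga2*, *Nrg1* and *Gjb6* had unadjusted P under 0.05 as well. *Itga2*, an integrin gene, had 316 and 371, 470 and 953, 312, and 479 and 315 counts, and *Nrg1*, a ligand of ERBB receptors, had 112 and 92, 255 and 314, 42, and 157 and 71. *Gjb6*, the gene of the gap junction protein connexin 30, had 62 and 89, 166 and 414, 37, and 122 and 168. In all 3 genes every WT wounded value was above every WT unwounded value. The nearest region of *Nrg1* lay 90845 bases from the gene start. The fold change of *Itga2* rested on WT wounded replicate 2, with a log2 fold change of 1.11 that was 0.42 without it, and that of *Gjb6* was 2.01 and 1.11 without it.

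By gene group, actin and migration genes had the most with a region and an unadjusted P under 0.05, namely 6 higher and 0 lower of 13 tested, where 3.18% of all genes were higher. Of the 13 tested genes of that list without a region 3 were higher too, and of wound and activated keratinocyte genes 3 of 9 with and 7 of 11 without a region. Among the actin and migration genes with a region were *Cald1*, *Myh9*, *Tpm4*, *Ptk2b* and *Tmsb10*. Wound and activated keratinocyte genes had 3 higher (*Itga2* and *Itga5* among them), and the TGF-beta and BMP pathway (*Pmepa1* and *Skil*), basal keratinocyte and hemidesmosome genes (*Lama3* among them) and endothelial genes (*Cdh5* and *Flt1*) had 2 higher each. The Notch ligand gene *Jag1*, *Nrg1*, *Gjb6*, *Dct*, *Acta2* and *Maf* were the single higher genes of their groups, and *Cebpa* the single lower gene. The value of *Maf* turned on WT wounded replicate 2, since its log2 fold change of 0.60 was -0.06 on dropping it. No gene with a region among AP-1 and stress factors, chromatin regulators, Hippo pathway and YAP targets or suprabasal, fibroblast and leukocyte genes reached an unadjusted P under 0.05 here. Changes were small for the abundant cytoskeletal genes. *Myh9*, the heavy chain gene of non-muscle myosin, went from 39939 and 43053 counts before to 53675 and 46775 after wounding. *Jag1*, with 7 intergenic regions, had 3877 and 4388 and then 5239 and 5317.

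Genes of other cell types were among those with a region. *Flt1*, an endothelial receptor gene, had 5 and 4 counts in WT unwounded, 91 and 105 in WT wounded, 0 in *Grhl3*-cKO unwounded and 35 and 14 in *Grhl3*-cKO wounded libraries. *Cdh5*, the endothelial cadherin gene, had 1 and 13, 107 and 44, 0, and 12 and 53 counts, and its nearest region lay 78329 bases from the gene start. *Acta2*, the smooth muscle actin gene, had 9 and 39, 275 and 154, 1, and 11 and 64, and *Dct*, a melanocyte enzyme gene, had 12 and 4, 79 and 37, 6, and 61 and 40. *Fndc1*, a fibronectin domain gene, had 1 and 2, 225 and 30, 6, and 26 and 51. All 5 genes were higher in both WT wounded than in both WT unwounded libraries. The summed CPM of 5 endothelial markers was 1.53 and 2.08 in WT unwounded, 20.6 and 5.92 in WT wounded, 0.831 in *Grhl3*-cKO unwounded and 8.06 and 7.32 in *Grhl3*-cKO wounded libraries, led by *Pecam1*. For 4 muscle and mural markers, led by *Acta2*, it was 0.702 and 2.55, 18.2 and 11.5, 0.0756, and 2.67 and 7.87. Leukocyte markers, led by *Cd74*, summed to 3.96 and 14.4, 10.8 and 33.0, 8.62, and 14.1 and 15.2 CPM, and fibroblast markers, led by *Col3a1*, to 28.3 and 14.1, 19.5 and 46.7, 11.3, and 26.7 and 37.3. Melanocyte markers, led by *Mitf*, summed to 35.6 and 35.6, 32.2 and 23.2, 54.0, and 31.5 and 26.7 CPM. *Mitf* alone made up most of that sum, with 33.1 and 34.7, 25.1 and 19.3, 52.9, and 25.5 and 21 CPM. *Dct* went the other way, higher in every wounded than in every unwounded library. The 7 keratinocyte markers, led by *Krt14*, summed to at least 32813 CPM in every library. The sort excluded CD31-positive and CD45-positive cells, and the part of other cells in the values of *Flt1*, *Cdh5* and *Acta2* was not tested.

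The response to GRHL3 loss at the wound was compared between *Grhl3*-cKO wounded and WT wounded keratinocytes, which share the WT wounded libraries with the comparison above. More genes with these regions were lower than higher in the *Grhl3*-cKO wound, though without WT wounded replicate 1 the counts were close, at 100 higher and 104 lower. The lower ones included the laminin gene *Lama3*, the cytoskeletal genes *Cald1*, *Msn* and *Myh9*, the growth factor genes *Nrg1*, *Areg*, *Epgn* and *Tgfb2*, the integrin genes *Itga2* and *Itga5*, and *Jag1*, *Tnc* and *Runx1*. The log2 fold changes of *Lama3* (-0.61) and *Itga2* (-0.72) rest on WT wounded replicate 2, since dropping it gave 0.07 and -0.03. Dropping it also took *Areg* from -0.62 to -0.28, *Itga5* from -0.84 to -0.44 and *Tnc* from -0.83 to -0.47, without an unadjusted P under 0.05. Higher ones included *Dsg1a*, *Klf4*, *Cebpa*, *Tfap2c*, *Rora*, *Fos* and *Atf3*, of which *Klf4* went from 0.38 to 0.13 on dropping *Grhl3*-cKO wounded replicate 1. Of 4415 genes, 224 (5.07%) had an unadjusted P under 0.05, against 4.04% of all genes tested and 229 of 5775 (3.97%) of genes nearest to regions of all 4 lists. Of these, 89 (2.02%, against 1.96% of all genes) were higher and 135 (3.06%, against 2.08%) lower. By edgeR's quasi-likelihood test 0 genes reached an adjusted p under 0.05, as for 0% of all genes, while DESeq2 gave 1, edgeR's likelihood ratio test 1 and the fit without an expression filter 20. The groups did not overlap for 1376 genes (31.2%, against 30.5% of all genes). Genes with at least 3 such regions had 44 of 703 (6.26%), 12 higher and 32 lower. The count rested in part on WT wounded replicate 2, without which it was 353, with 160 higher and 193 lower, and 8 genes with an adjusted p under 0.05.

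*Cald1* had the smallest P among them, with 1842 and 2479 counts in WT wounded and 722 and 513 in *Grhl3*-cKO wounded keratinocytes and no overlap. Its log2 fold change was -1.68 (SE 0.25, edgeR's quasi-likelihood test, adjusted p = 0.0729), from -1.36 to -1.92 without 1 library, and the adjusted p was 0.00522 without WT wounded replicate 1, 0.0424 without WT wounded replicate 2, 0.216 without *Grhl3*-cKO wounded replicate 1 and 1 without *Grhl3*-cKO wounded replicate 2. DESeq2 gave 5.75e-06. *Tgfb2*, which encodes a TGF-beta ligand, had 295 and 243 against 130 and 66 counts, with 333 in *Grhl3*-cKO unwounded keratinocytes, the highest of the 7 libraries. Its single region lay 244840 bases from the gene start. *Ppp1r3b*, a gene of glycogen metabolism with 5 such regions, had 275 and 89 against 18 and 7 counts, and *Fam167a* had 3062 and 2321 against 1560 and 1316. Both genes were lower in each *Grhl3*-cKO wounded library than in each WT wounded one.

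Among the higher genes was *Asprv1*, while of the suprabasal and cornified envelope list 0 of 4 tested genes with a region and 4 of 14 without were higher at an unadjusted P under 0.05. *Asprv1*, the gene of a protease that processes profilaggrin, had 755 and 801 counts in WT unwounded, 462 and 385 in WT wounded, 462 in *Grhl3*-cKO unwounded and 886 and 680 in *Grhl3*-cKO wounded keratinocytes. Its log2 fold change was 1.03 (SE 0.22, edgeR's quasi-likelihood test, adjusted p = 0.783). *Dsg1a*, a desmoglein gene of upper epidermal layers, had 6018 and 6828 counts in WT wounded and 8278 and 8634 in *Grhl3*-cKO wounded keratinocytes, a log2 fold change of 0.53 (unadjusted P = 0.00383, adjusted p = 1 by edgeR). *Rora*, a nuclear receptor gene, had 3578 and 3729 against 4711 and 4930 counts, and *Rgcc*, a cell cycle regulator gene, had 722 and 713 against 887 and 1761. *Klf4*, a barrier transcription factor gene, had 20602 and 16602 against 25638 and 18092 counts, or 1228 and 1079 against 1752 and 1249 CPM, so that its groups nearly touched, and *Fos* had 23912 and 25916 against 31065 and 27581. In *Rora*, *Klf4*, *Fos* and *Dsg1a* the *Grhl3*-cKO unwounded library had the highest count of all, with 6429, 31346, 44368 and 10193. *Satb1*, a chromatin organizer gene and the single chromatin regulator in this set, had 501 and 653 against 898 and 731 counts, without overlap.

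By gene group, the lower genes came from wound and activated keratinocyte genes (4 lower and 0 higher of 9 tested), actin and migration genes (4 and 0 of 13), EGF family and receptor genes (3 and 0 of 8) and basal keratinocyte and hemidesmosome genes (2 and 0 of 4), where 2.08% of all genes were lower. Actin and migration genes without a region were lower as often, 4 of 13, so in that group this was not particular to genes with a region. In the other groups fewer genes without a region were lower. They were 2 of 11 wound and activated keratinocyte genes, 0 of 5 EGF family and receptor genes and 1 of 11 basal keratinocyte and hemidesmosome genes. These small counts were not tested. The TGF-beta and BMP pathway, the Notch pathway, endothelial genes and muscle and mural genes had 1 lower each. Epidermal transcription factors had 4 higher and 2 lower, AP-1 and stress factors 2 higher, and cell junction genes and chromatin regulators 1 higher each. No Hippo pathway, suprabasal, melanocyte, fibroblast or leukocyte gene with a region had an unadjusted P under 0.05 between the wounded genotypes.

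Wounding of *Grhl3*-cKO skin was described by a 2-fold rule because a single *Grhl3*-cKO unwounded RNA library was used here, the one with the *Xist* counts given above. *Tgfb2* was lower after wounding. *Flt1*, *Cdh5*, *Acta2*, *Dct*, *Gjb6*, *Fndc1* and *Tnc* were at least 2-fold higher in both wounded libraries. *Tnc*, which encodes the matrix protein tenascin C, had 710 counts in *Grhl3*-cKO unwounded and 4376 and 2226 in wounded keratinocytes. Its nearest region lay 40881 bases from the gene start. Among 4415 genes, 368 (8.34%, against 9.58% of all genes tested) differed by at least 2-fold, 200 higher (4.53%, against 5.69%) and 168 lower (3.81%, against 3.89%). For genes nearest to regions of all 4 lists the share was 5.32%. With a single wounded library the rule is looser, and it gave 663 genes without *Grhl3*-cKO wounded replicate 1 and 741 without replicate 2.

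Unwounded skin was compared between genotypes by the same rule and with the same single library. *Fos*, *Rora* and *Satb1* were at least 2-fold higher in the *Grhl3*-cKO library than in both WT unwounded libraries, and *Tnc*, *Acta2* and *Flt1* were lower. *Fos* had 44368 counts against 24682 and 27314. Of the 4415 genes, 340 (7.70%, against 10% of all genes tested) differed, 185 higher (4.19%, against 4.98%) and 155 lower (3.51%, against 5.01%), and for genes nearest to regions of all 4 lists the share was 5.87%. Without WT unwounded replicate 1 the rule gave 778 genes and without replicate 2 it gave 644. The share for genes of the 8543 regions was thus below that of all genes tested and above that of genes nearest to regions of all 4 lists. Genotype and the sex-linked difference of this library cannot be told apart in these counts.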

How the data were processed

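RNA-seq and ATAC-seq of sorted keratinocytes were analysed from processed files. RNA-seq values are counts, deposited by the authors as whole numbers for 7 libraries. Each ATAC-seq peak carries a fold enrichment ratio that the authors deposited. The deposited significance values of a peak are −log10 p and −log10 q, and the deposited score was not used. The sources name FastQC, Trimmomatic, bowtie2, MACS2 and Kallisto with the mm10 genome, and which step made the counts is not known here. Peaks were called separately on 1 library per condition, and whether all 4 were called alike is not known here. Left out were ambiguous reads, 1.34% to 1.45%, and reads not aligned uniquely, 3.46% to 4.74%.

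The 4 lists were merged (bedtools, distance 0), and a region counted as present in a list if any of its peaks overlapped it. Values are those of its peak with the highest −log10 p. Each region was assigned to the protein-coding gene with the nearest start to its midpoint (GENCODE vM21 basic set), and promoters reach 1000 bases from a start. Of 5275 genes, 5144 matched the count tables by symbol or older symbol and 131 did not. Motifs were searched as letter patterns, with N for any base, on both strands in windows of 300 bases. The 14045 of 24421 genes that passed edgeR's filterByExpr entered 1 model of 4 groups with TMM size factors. P-values are two-sided, from edgeR's quasi-likelihood test, and were adjusted by Benjamini-Hochberg over these genes. The biological coefficient of variation was 31.6%, and replicate counts differed by more than sampling noise, with chi-square per degree of freedom of 30.5 to 41.9. Comparisons with the single *Grhl3*-cKO unwounded library used a rule of 2-fold or more against every library (log2 CPM, prior count 2). Whether the response to wounding differed between genotypes was tested in the same fit, a test added after the data were seen. Scripts were tested on simulated data.

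Named genes were the 10 genes with the most regions missing only from the WT unwounded list, the genes nearest to the 10 strongest, genes of 17 lists with such a region and an unadjusted P under 0.05 in either tested comparison, any with an adjusted p under 0.05, the 5 with the smallest P and non-overlapping groups in each tested comparison (mean log2 CPM of at least 1), and *Fscn1*, *Krt17*, *Krt16*, *Krt6b*, *Itga5*, *Krt14*, *Krt1*, *Cdh1*, *Pdpn* and *Grhl3*. Regions at the boundary of the rule and genes that passed the test of wound response by genotype were named after their values were seen. Results of some genes chosen by these rules are not reported here. The regions and the gene lists were chosen with earlier results of these data known. Rule, tests and alternatives were fixed before the files were opened, except the test of wound response by genotype and the alternative without genes of chromosomes X and Y, which were chosen after seeing the data. Alternatives for regions were equal-length lists, q up to 0.01, fold enrichment from 4 upward, 50% overlap, merging within 500 bases, chromosomes 1 to 19 and X, other promoter distances, all gene types, genes within 10000 bases, DESeq2, RLE size factors, the likelihood ratio test, a replicate block, no filter, a floor of 10 counts per library, fits of just the 4 compared libraries, prior counts of 0.5 and 5, and leaving out each library. Software was bedtools 2.31.1, samtools 1.23.1, Python 3.11.15 with pandas 2.3.3, numpy 2.4.6, pysam 0.24.0 and scipy 1.17.1, and R 4.3.3 with DESeq2 1.42.0 and edgeR 4.0.16.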

Additional observations from a re-analysis of the deposited data

Results flagged for a closer look

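For 5 genes given here that are nearest to these regions the difference in wound response between the groups labelled WT and *Grhl3*-cKO had an adjusted p under 0.05 over all genes tested by edgeR's quasi-likelihood test. Among the 4415 genes tested, 341 (7.72%, against 6.77% of all genes) had an unadjusted P under 0.05, and 6 had an adjusted p under 0.05, against 26 of all 14045 genes. Each of the 5 rests on the single *Grhl3*-cKO unwounded library, whose spread is assumed to be like that of the other groups and whose *Xist* and Y-linked counts differ from those of the other libraries. In each of the 5 genes that library held the highest or lowest count, so a difference between genotypes cannot be told apart from a difference of this 1 library. All 5 were chosen after their values were seen.

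*Akr1c18*, a steroid-metabolizing enzyme gene with a region 35 bases from its start (adjusted p = 0.00211), had 232 and 233 counts in WT unwounded, 203 and 95 in WT wounded, 4266 in *Grhl3*-cKO unwounded and 19 and 125 in *Grhl3*-cKO wounded keratinocytes, and its adjusted p was at most 0.0108 without any 1 of the 6 libraries of the other groups. *Stfa3*, a cystatin family gene (0.0189), had 1280 and 4447, 1199 and 2854, 127, and 2499 and 2469. *Igfbp3*, a growth factor binding protein gene (0.0203), had 2757 and 1736, 2363 and 2550, 7321, and 2292 and 2218. *Nuak1*, a kinase gene (0.0203), had 747 and 872, 789 and 691, 1729, and 510 and 537. *Hlf*, a transcription factor gene (0.0318), had 102 and 132, 183 and 255, 873, and 372 and 281. The *Grhl3*-cKO unwounded count was the lowest in *Stfa3* and the highest in the other 4. Without *Grhl3*-cKO wounded replicate 1 the adjusted p was 0.123 for *Stfa3*, *Nuak1* and *Hlf* and 0.137 for *Igfbp3*, and without replicate 2 it was 0.129, 0.0999, 0.212 and 0.149. Dropping WT unwounded replicate 1 gave 0.0512 for *Nuak1* and 0.0566 for *Hlf*, and dropping replicate 2 gave 0.0778 for both and 0.0686 for *Igfbp3*.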

How the results depend on the processing

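The number of regions depended most on list length and strength, with 891 in lists of equal length and 4377 at a fold enrichment of at least 4, and a cause beyond the shorter lists was not tested. The promoter share was 30.5% at a q of at most 0.01, 32.9% at a fold enrichment of at least 4, 23.6% in lists of equal length, 33.9% with 50% overlap, 26.1% with shorter and 28.9% with longer promoters and 31.2% with starts of all gene types. Counts of genes fell with fewer genes entering. They were 164, 142, 241 and 211 with genes within 10000 bases, and 55, 43, 65 and 52 in lists of equal length, for WT wounded against unwounded, *Grhl3*-cKO wounded against WT wounded, *Grhl3*-cKO wounded against unwounded and *Grhl3*-cKO against WT unwounded. With at least 10 counts in every library the 2-fold rule gave 154 and 166. Leaving out 1 library gave 238 to 331, 171 to 353, 663 to 741 and 644 to 778, where a lone library is assumed to vary like the others in the tests and loosens the 2-fold rule. Leaving out X-linked and Y-linked genes, an alternative chosen after seeing the data, gave 259, 220, 358 and 331.

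With a replicate block the tested counts were 289 and 240. The deviations of same-numbered samples correlated at 0.154 (WT unwounded and WT wounded) and -0.0386 (WT wounded and *Grhl3*-cKO wounded), and samples are known to share only a number, since the labels do not say which came from the same animal. For the 2-fold rule no paired analysis was possible because the *Grhl3*-cKO unwounded group has 1 library. The other alternatives moved none of these counts by more than 1.5 times, while numbers of genes with an adjusted p under 0.05 varied more.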
